A study of Mus musculus with 8 samples.

Results

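Biglycan was added to naive CD4+ T cells of mouse while they were polarized to the Th17 fate, and messenger RNA of the resulting cells was compared with that of Th17 cells polarized without it. The comparison rests on 4 of the 8 libraries of the study, 2 with biglycan (replicates 7 and 8 in the titles) and 2 Th17 libraries without a ligand (replicates 1 and 2), and on all 23366 genes of the count table, of which 11629 had enough counts to be tested. All cells came from spleen and lymph nodes of C57BL/6 mice, and all cultured groups were stimulated with antibodies to CD3e and CD28 and polarized with TGFb and IL-6 for 3 days. The other groups were Th17 cultures with PAM3CSK4, a synthetic lipopeptide that stimulates TLR2 (replicates 3 and 4), and naive CD4+ T cells (replicates 1 and 2). The dose of biglycan could not be read with certainty from the series text, and no library held cells activated without polarizing cytokines or naive cells given biglycan. Whether the 2 libraries of each group go back to separate mice or cultures is not said in the labels, and the p-values therefore reflect the variation among the sequenced libraries, part or all of which may be technical.

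Biglycan is a small leucine-rich proteoglycan of the extracellular matrix. Set free from the matrix, it is known in macrophages to stimulate TLR2 and TLR4, which signal through the adaptor MyD88 to NF-kB, with CD14 as a co-receptor, and it engages purinergic receptors that act on the NLRP3 inflammasome. Th17 cells arise from naive CD4+ T cells under TGF-beta and IL-6, and secrete IL-17A and IL-17F.

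The biglycan libraries held 9361343 and 9360830 gene counts and the Th17 libraries 11788948 and 10207664. The markers of the labelled cell type were present: the summed level of 10 CD4+ T cell genes was 4128 and 4072 CPM (counts scaled to library size) with biglycan and 4118 and 4165 CPM without. The B cell markers summed to between 1.06 and 1.26 CPM in these 4 libraries, and 20 myeloid and dendritic markers to 218 and 220 CPM with biglycan against 229 and 236 CPM without, with 6 of them at 0 in all 4.

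Biglycan replicate 7 stood apart in some, but not all, transcripts of matrix and smooth muscle cells. Acta2, which encodes smooth muscle actin, had 64 counts there, against 7 in biglycan replicate 8 and 1 and 8 in the Th17 libraries. Col3a1, a fibrillar collagen chain, had 59 counts against 6 in replicate 8 and 2 and 12 without biglycan. The transcript of biglycan itself, Bgn, had 32 counts in replicate 7, 2 in replicate 8 and 1 and 9 in the Th17 libraries. Other matrix genes did not set replicate 7 apart from Th17 replicate 2. Col1a1 had 19 counts in replicate 7 and 20 in Th17 replicate 2, and Fn1 had 25 and 26. Without the endothelial and leukocyte gene Pecam1, the other 10 markers of the stromal list summed to 24.5 CPM in replicate 7, 4.55 CPM in replicate 8, and 2.19 and 9.95 CPM in the Th17 libraries. Added biglycan is a protein, so its presence in the medium is not what the Bgn counts measure. In bulk RNA, more cells of a type and more RNA per cell cannot be told apart.

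No gene passed the test for a difference with biglycan. In edgeR's quasi-likelihood test with Benjamini-Hochberg adjustment and a threshold of 0.05, 0 of 11629 genes (0%) differed between biglycan and Th17, and the smallest adjusted p was 0.083, for the small nucleolar RNA Snord49b. At an unadjusted p under 0.05 there were 506 genes (4.35%), 278 higher and 228 lower with biglycan. DESeq2 and limma-voom also called 0 genes, with 201 and 530 at an unadjusted p under 0.05. Both biglycan libraries were above both Th17 libraries for 2015 genes (17.3%) and below both for 1960 (16.9%).

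This count of 0 depended on the filter for low counts and on single libraries. With every gene of at least 1 count kept, edgeR called 29 of 15785 genes, 14 higher and 15 lower with biglycan. In that fit the prior degrees of freedom were infinite, which leaves no gene a quasi-likelihood spread of its own, whereas they were 15.9 after the filter. Of the 29 genes, 27 were tested after the filter, with adjusted p from 0.083 to 0.888 there. They included 11 small nucleolar or Cajal body RNAs, all lower, and 8 collagen, muscle and matrix genes with most of their counts in biglycan replicate 7. Cenpe and Lig1, genes of cell division, were also among them, both higher. Leaving out Th17 replicate 1 called 1 gene, Cyp1b1, and leaving out Th17 replicate 2 called 4 genes, all lower: Hspa8, Snora61, Snord47 and Snord49b. Without biglycan replicate 7 the small nucleolar RNAs Snora78 and Snora7a were called lower, 2 genes in all, and without biglycan replicate 8 the 6 genes Acta2, Col5a2, Fstl1, Lox, Tagln and Thbs2 were called higher. In each of these fits the lone library of a group is assumed to vary like the other groups.

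The data were precise enough to bound most differences. Among 8503 genes with a mean of at least 10 CPM over the 6 cultured libraries, the 95% interval of the fold change between biglycan and Th17 lay within 1.5-fold in either direction for 8226 genes (96.7%) and within 2-fold for 8495 (99.9%). The estimate itself was beyond 1.5-fold for 6 of these genes and beyond 2-fold for 0. Over all 11629 tested genes, the others being at lower levels, 74.9% of the intervals lay within 1.5-fold, and 496 estimates were beyond 1.5-fold and 160 beyond 2-fold. For PAM3CSK4 against the same Th17 libraries, 218 estimates of the 8503 genes were beyond 1.5-fold and 28 beyond 2-fold.

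Pairs of libraries showed the same scale. Over those genes, the SD of the log2 difference was 0.145 to 0.172 in the 4 pairs of a Th17 and a biglycan library. It was 0.169 between the 2 Th17 libraries and 0.143 between the 2 biglycan libraries. The range between Th17 and biglycan libraries therefore overlapped the distances between replicates. Pairs of a PAM3CSK4 and a biglycan library were at 0.238 to 0.284, and pairs of a Th17 and a PAM3CSK4 library at 0.22 to 0.295, all above the 0.15 between the PAM3CSK4 replicates.

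**Figure D1:**
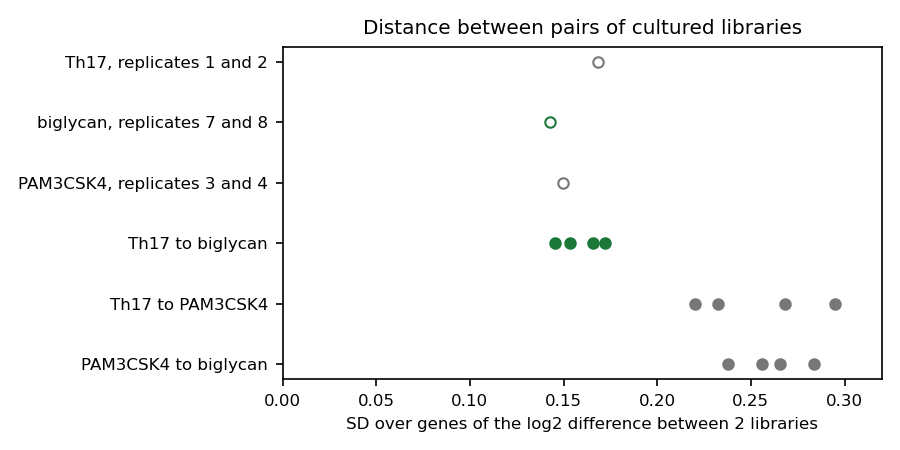
SD over 8503 genes of the log2 difference (x axis) for pairs of cultured libraries (rows); open points are the 3 replicate pairs and filled points the pairs between groups, 4 for each. The 4 Th17 to biglycan pairs, at 0.145 to 0.172, overlap the replicate pairs, at 0.143 to 0.169, with 1 pair above them, and the pairs with PAM3CSK4 lie at 0.22 or above.

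The cytokines that define Th17 cells had overlapping levels with and without biglycan. Il17a was at 89.7 and 94.2 CPM with biglycan and at 95.8 and 77.1 CPM without, and the groups overlapped. Its log2 fold change was 0.09 ± 0.13 (SE), with a 95% interval from -0.18 to 0.36. Il17f was at 440 and 426 CPM against 462 and 358 CPM (log2 0.08, interval -0.13 to 0.28). Il21, which encodes a cytokine that sustains Th17 cells, was at 210 and 221 CPM against 229 and 176 CPM (log2 0.09, interval -0.11 to 0.29). For all 3 cytokines both biglycan libraries lay between the 2 Th17 libraries in CPM. In the deposited RPKM values Il17a was at 50.03 and 49.87 against 49.17 and 39.08, so there the groups did not overlap, and for Il17f and Il21 1 biglycan library was above both Th17 libraries. Il10, an anti-inflammatory cytokine gene, was at 16.6 and 16.4 CPM with biglycan against 18.1 and 9.08 CPM, and Il23r, the receptor subunit for IL-23, at 6.3 and 9.09 CPM against 7.76 and 3.09 CPM. Their intervals were wide, -0.27 to 0.80 and -0.20 to 1.16 on the log2 scale.

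The transcription factors of the lineage were likewise close. Maf, which activates Il10 and Il21, differed by 0.01 ± 0.09 on the log2 scale. Rora, a nuclear receptor of the lineage, was at 86.6 and 80.0 CPM with biglycan and 95.2 and 85.1 CPM without, a log2 difference of -0.12 with an interval from -0.29 to 0.06. Ahr, the aryl hydrocarbon receptor, was at 118 and 135 CPM within a Th17 range of 101 to 158 CPM. Irf4 and Batf, which open Th17 loci together, differed by 0.05 ± 0.09 and 0.23 ± 0.12. Of 25 tested genes of a Th17 list, 16 were higher and 9 lower, none at an unadjusted p under 0.05 against 4.35% of all genes, with a median log2 fold change of 0.075 against 7.56e-05 for all tested genes. That median was -0.083 without Th17 replicate 2, -0.01 without biglycan replicate 8 and 0.14 without Th17 replicate 1. Factors of other T helper fates showed no call either: Tbx21 (Th1) was near 1 CPM in these libraries, Gata3 (Th2) differed by -0.04 ± 0.14 and Foxp3 (regulatory T cells) was at 2.94 and 2.64 CPM against 2.53 and 3.09 CPM. Ifng had 0 counts in both groups, which allows at most 0.135 CPM over the Th17 and 0.158 CPM over the biglycan libraries.

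**Figure D2:**
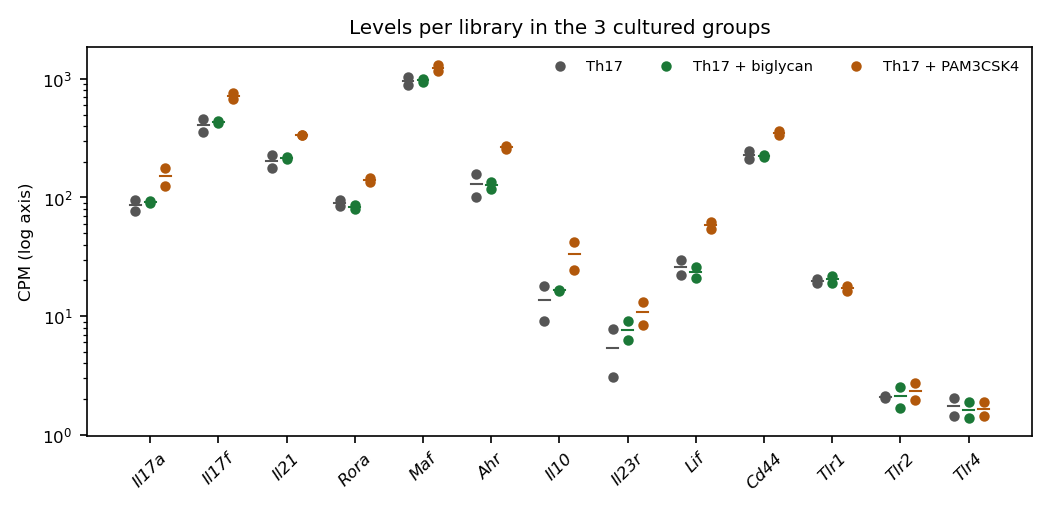
CPM on a log axis (y) of 13 genes (x) in each of the 2 libraries of the Th17, biglycan and PAM3CSK4 groups; points are libraries and bars are group means. The biglycan and Th17 points of Il17a, Il17f and Il21 overlap, and the PAM3CSK4 points of these genes lie above both.

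The receptors that biglycan is known to bind in macrophages were scarce in these T cells. In the deposited RPKM values, which are scaled to transcript length, Tlr2 was at 0.519 and 0.355 with biglycan and 0.408 and 0.389 without, and Tlr4 at 0.297 and 0.195 against 0.212 and 0.213. On the same scale Il17f was at 246 and 232 RPKM with biglycan. Tlr1, a TLR2 partner, was higher, at 3.78 and 4.22 RPKM against 3.54 and 3.88, and Tlr6, the other partner, stood at 1.57 and 1.08 RPKM against 1.71 and 1.29. Tlr2 and Tlr4 were thus the lowest of the 4 receptors in all 4 libraries. The fitted log2 differences were 0.02 ± 0.36 for Tlr2, -0.10 ± 0.41 for Tlr4, 0.05 ± 0.13 for Tlr1 and -0.27 ± 0.23 for Tlr6. The co-receptor Cd14 had 0 counts in both biglycan libraries, which allows 0.158 CPM, and 1 count in all in the Th17 libraries. Nlrp3 had 1 count in the biglycan libraries and 0 in the Th17 libraries, and Il1b had 0 counts in all 4.

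Other parts of the pathway were expressed. Cd44, a hyaluronan receptor that can act with biglycan, was at 220 and 230 CPM against 248 and 209 CPM without biglycan. Ly96, the TLR4 co-receptor MD-2, was at 4.83 and 3.17 CPM against 2.7 and 3.0 CPM, with a log2 difference of 0.49 ± 0.30. The adaptor Myd88 differed by 0.07 ± 0.10, the kinase gene Irak4 by 0.14 ± 0.13, and the inflammasome adaptor gene Pycard by -0.01 ± 0.10. Of the purinergic receptors, P2rx7 was at 13.9 and 14.5 CPM against 17.3 and 16.2 CPM and P2rx4 at 22.4 and 24.5 CPM against 18.5 and 22.9 CPM. Lrp1, an endocytic receptor, differed by 0.41 on the log2 scale. Among 12 tested genes of the list of biglycan receptors and inflammasome parts, 4 were higher and 8 lower, and among 27 of the TLR and MyD88 pathway 13 were higher and 14 lower. No gene of either list reached an unadjusted p under 0.05, against 4.35% of all genes, a share that amounts to few genes in lists this short.

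The targets of this signalling showed no call with biglycan. The NF-kB inhibitor gene Nfkbia was at 81.1 and 81.7 CPM against 79.3 and 73.5 CPM, and Tnf at 43.8 and 43.0 CPM against 44.0 and 42.1 CPM. Of 29 tested NF-kB targets, 19 were higher and 10 lower with a median of 0.034 on the log2 scale. At an unadjusted p under 0.05 were 3 higher, the NF-kB subunit genes Relb (0.28) and Nfkb2 (0.21) and the inhibitor gene Tnip1 (0.17), and 1 lower, the costimulatory receptor gene Cd40 (-0.33), against 2.39% and 1.96% of all genes. Immediate early and AP-1 genes were lower in 19 of 27 cases with a median of -0.084, which was -0.0034 without Th17 replicate 1. At an unadjusted p under 0.05 were 3 lower, Egr2 (-0.33), Nr4a1 (-0.19) and Fos (-0.24), and 1 higher, Jund (0.18), against 1.96% and 2.39% of all genes. Among 25 tested TGF-beta targets 17 were lower, with Ccr8 (-0.30), a chemokine receptor gene, and Pmepa1 (-0.23), a feedback inhibitor of the pathway, the 2 lower ones at an unadjusted p under 0.05 against 1.96% of all genes, and 0 higher. The activation marker Cd69 was at 63.1 and 62.4 CPM with biglycan and 79.0 and 68.0 CPM without, groups that did not overlap, with a log2 difference of -0.23 ± 0.09. None of these genes passed the adjusted threshold.

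**Figure D3:**
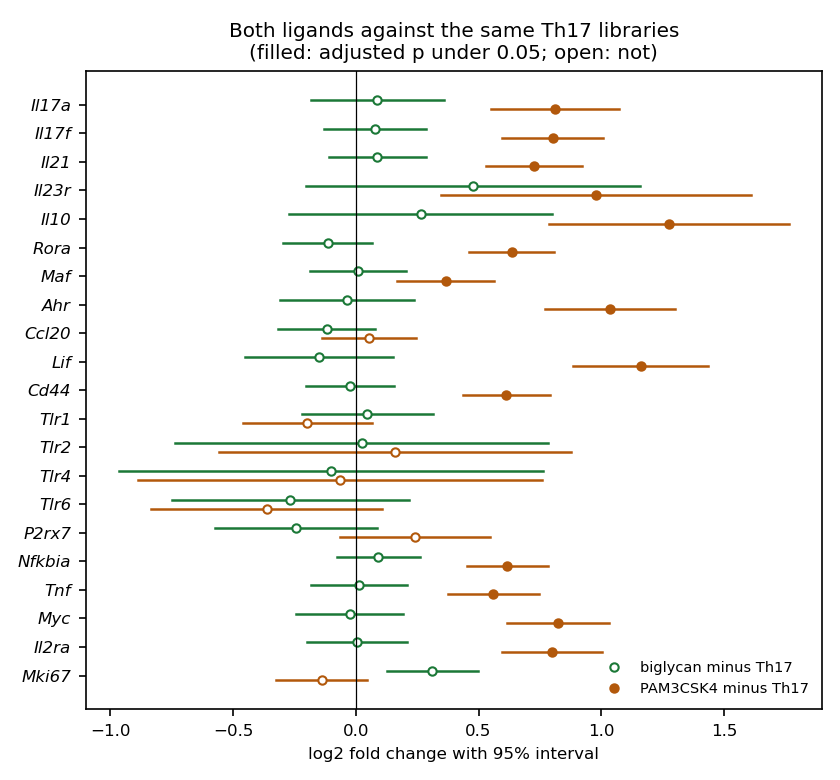
Log2 fold change (x axis) with its 95% interval for 21 genes (y axis) in biglycan (green) and PAM3CSK4 (orange) cultures against the same 2 Th17 libraries; filled points have an adjusted p under 0.05. No biglycan point is filled, and the intervals of Il17a, from -0.18 to 0.36, and Cd44 include 0.

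Among genes that were higher with biglycan, Cyp1b1 had the smallest p. It encodes a cytochrome P450 that the aryl hydrocarbon receptor induces. Its level was 50.8 and 51.2 CPM with biglycan and 36.4 and 24.9 CPM without, and the groups did not overlap. The fold change was 1.66, with a 95% interval from 1.35 to 2.03 (adjusted p = 0.16). Values of other targets of the receptor were set beside it, without a test of the difference between genes. Ahrr, its repressor, was at 85.2 and 86.0 CPM within a Th17 range of 71.6 to 101 CPM, and Tiparp, another induced gene, was at 205 and 226 CPM against 276 and 228 CPM (log2 -0.23 ± 0.10). Sh3bp5, which encodes a binding partner of Bruton's kinase and a Rab11 exchange factor, followed at 45.3 and 48.6 CPM with biglycan against 30.7 and 35.1 CPM, a log2 difference of 0.52 ± 0.10 (adjusted p = 0.16).

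Of the 10 genes with the smallest p in this direction, Pim1 and Socs2 are on the list of IL-2 and STAT5 targets. Pim1, a survival kinase gene, was at 109 and 103 CPM with biglycan against 82.9 and 84.7 CPM (log2 0.34 ± 0.08, adjusted p = 0.45). Socs2, a feedback inhibitor of cytokine receptors, was at 72.2 and 66.3 CPM against 52.8 and 51.3 CPM (log2 0.41 ± 0.11). Both genes had narrow groups that did not overlap. Of 21 tested members of the IL-2 and STAT5 list, 11 were higher and 10 lower, and the 5 at an unadjusted p under 0.05 were all higher: Pim1, Socs2, Cish, Nfil3 and Bcl2, against 2.39% of all genes in that direction. Cish was at 8.93 and 8.35 CPM against 7.85 and 4.16 CPM. The list's median was 0.0049, and 0.038 to 0.15 with 1 library left out, and Il2ra, the IL-2 receptor alpha chain, differed by 0.00 with an interval from -0.20 to 0.21.

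The remaining genes with the smallest p in this direction were of mixed kinds. Gbp7, a guanylate-binding protein gene of the interferon response, was at 8.09 and 7.19 CPM with biglycan against 4.05 and 4.35 CPM (log2 0.86 ± 0.22, adjusted p = 0.69). In the interferon list 25 of 40 tested genes were higher and 14 lower with a median of 0.071, and 4 of them, Gbp3, Igtp, Bst2 and Ddx58, were higher at an unadjusted p under 0.05 against 2.39% of all genes, by 0.21 to 0.31 on the log2 scale. Mdc1, a DNA damage checkpoint mediator, was at 58.1 and 55.8 CPM against 42.3 and 46.1 CPM. Tmem144, a membrane protein gene, had a level near 1 CPM with biglycan, at 1.26 and 1.16 CPM, against 0.169 and 0.097 CPM. Tagln, a smooth muscle gene, had 27 counts in biglycan replicate 7 and 3 in replicate 8, so its estimate rested on replicate 7.

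The kinetochore genes Ndc80 and Cenpe completed the 10 genes, and most genes of cell division had higher values with biglycan, none of them called after the filter. Ndc80 was at 69.0 and 71.6 CPM with biglycan and 54.5 and 54.7 CPM without, and Cenpe at 147 and 155 CPM against 112 and 124 CPM. Mki67, the proliferation marker Ki-67, was at 914 and 1004 CPM against 723 and 823 CPM, a log2 difference of 0.31 ± 0.09 (adjusted p = 0.82). In none of these genes did the libraries of the groups overlap. Of 36 mitosis genes 35 were higher with biglycan, by a median of 0.18 on the log2 scale against 7.56e-05 for all genes, and 16 were higher at an unadjusted p under 0.05 against 2.39% of all genes. Both biglycan libraries were above both Th17 libraries for 29 of the 36, against 17.3% of all tested genes. Ccnb1, a mitotic cyclin gene, was the 1 that was lower, by -0.16.

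DNA replication genes showed the same order. Of 40 genes 39 were higher with biglycan, with a median of 0.17, and 30 of them did not overlap between the groups, against 17.3% of all genes. At an unadjusted p under 0.05 were 11, all higher, against 2.39%. Pold1, the catalytic subunit of polymerase delta, was at 55.3 and 52.1 CPM against 39.1 and 43.5 CPM, and Lig1, the ligase that joins Okazaki fragments, at 63.9 and 67.0 CPM against 45.7 and 53.2 CPM. Top2a, a topoisomerase of dividing cells, was at 1164 and 1208 CPM against 963 and 1086 CPM. With the filter no gene of the 2 lists was called, and without it Cenpe and Lig1 were. With single libraries left out and in the other alternatives the medians stayed between 0.11 and 0.24 for mitosis and between 0.15 and 0.19 for replication. The summed level of the mitosis list was 5909 and 6176 CPM with biglycan and 5011 and 5482 CPM without; the 2 Th17 libraries themselves differed in the same genes, with list medians of -0.058 and 0.058 around their mean against 0.14 and 0.19 in the biglycan libraries.

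Histone genes that are expressed in S phase were not higher as a group. Their summed level was 4374 and 3996 CPM with biglycan against 3989 and 4051 CPM without, so the groups overlapped. Of 54 tested, 16 were higher and 38 lower with a median of -0.15, which ranged from -0.26 to -0.059 over the alternatives. At an unadjusted p under 0.05 were 4 higher and 12 lower, against 2.39% and 1.96% of all genes, and 24 did not overlap in the lower direction against 16.9%. The linker histone genes Hist1h1a, Hist1h1b, Hist1h1d and Hist1h1e were higher by 0.24, 0.20, 0.19 and 0.23 on the log2 scale, and they were the 4 higher ones. The core histone gene Hist1h3b was at 17.5 and 17.2 CPM with biglycan against 27.5 and 21.5 CPM, and Hist1h3i and Hist1h2ae were lower by log2 differences of -0.69 and -0.59. The linker genes were named after their values were seen. Most histone transcripts lack a poly(A) tail, and per the labels the libraries were made with an mRNA kit.

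**Figure D4:**
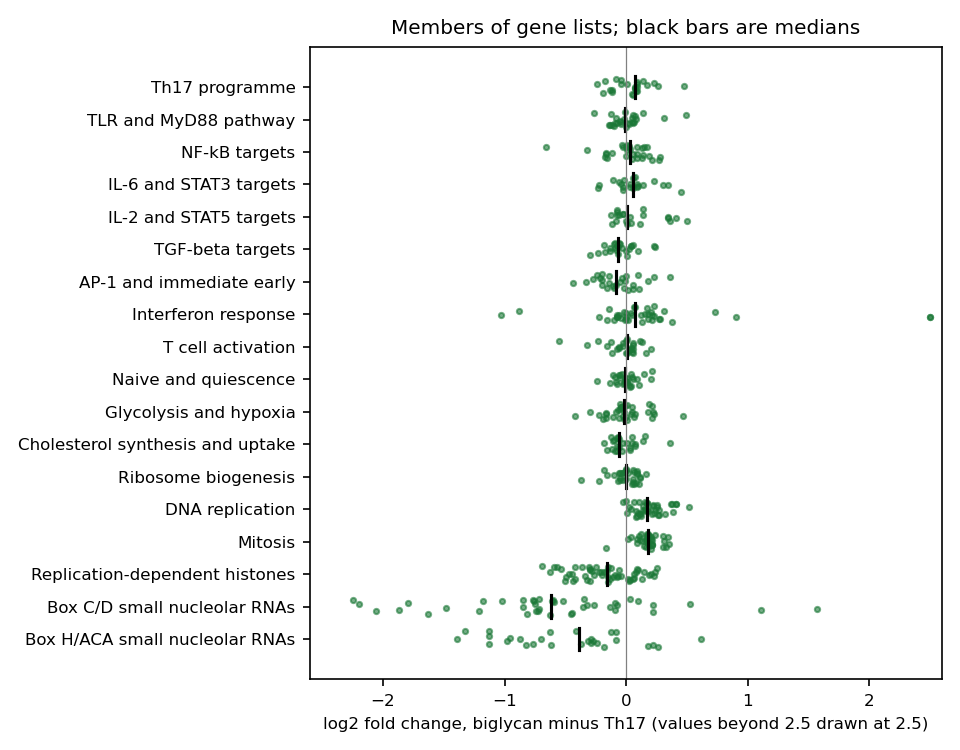
Log2 fold change of biglycan minus Th17 (x axis) for the tested members of 18 gene lists (rows); points are genes, black bars are medians, and 2 points beyond 2.5 are drawn at 2.5. Most lists centre near 0, the replication and mitosis lists lie to the right of it (medians 0.17 and 0.18) and the small nucleolar RNAs to the left (medians -0.62 and -0.39).

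Small nucleolar RNAs made up 7 of the 10 genes with the smallest p in the lower direction. These RNAs guide chemical modification of ribosomal RNA, box C/D members for methylation and box H/ACA members for pseudouridylation, and most lie in introns of host genes. The 4 shown are those with the smallest p among them that have a tested host gene. Capitals mark the C box letters TGATGA and the D box letters CTGA, or the ACA near the end of a box H/ACA RNA.
Snord49b: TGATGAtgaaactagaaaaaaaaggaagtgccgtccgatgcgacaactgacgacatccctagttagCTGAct
Snord47: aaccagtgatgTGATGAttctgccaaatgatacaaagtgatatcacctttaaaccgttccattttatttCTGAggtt
Snord15b: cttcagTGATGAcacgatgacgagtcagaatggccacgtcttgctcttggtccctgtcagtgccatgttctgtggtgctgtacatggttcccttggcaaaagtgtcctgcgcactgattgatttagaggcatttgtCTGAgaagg
Snora61: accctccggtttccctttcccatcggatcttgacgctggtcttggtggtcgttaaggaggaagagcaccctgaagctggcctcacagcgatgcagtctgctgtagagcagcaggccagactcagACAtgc
In GENCODE M21 on GRCm38, Snord49b lies at chr11:62603079-62603150 on the plus strand within 2410006H16Rik, and Snord47 at chr1:161038082-161038158 on the plus strand within Gas5. Snord15b lies at chr7:99479563-99479707 on the minus strand within the ribosomal protein gene Rps3, and Snora61 at chr4:132310240-132310369 on the plus strand within Snhg12. The authors counted on another build, mm9, so these positions describe the annotation and not their counting. TGATGA followed downstream by CTGA was found in 32 of 42 tested box C/D RNAs and in 0.327% of 58756 protein-coding transcript starts of 78 bases. ACA within the last 8 bases was found in 25 of the tested box H/ACA RNAs and in 8.23% of 58713 starts of 132 bases. Both were searched on the transcript strand only.

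Snord49b was at 0.84 and 1.16 CPM with biglycan and 5.82 and 3.67 CPM without, from 8 and 11 against 69 and 38 counts. The level was 4.74-fold lower with biglycan, a log2 difference of -2.24 ± 0.37 (adjusted p = 0.083). Snora61 was at 4.52 and 3.81 CPM against 13.7 and 8.02 CPM (log2 -1.39 ± 0.25), and Snord47 at 3.36 and 3.28 CPM against 14.3 and 5.99 CPM (log2 -1.63 ± 0.34). In all 3 both biglycan libraries were below both Th17 libraries, which differed from each other by more than the biglycan libraries did. Snord15b was at 30.6 and 24.5 CPM against 43.5 and 47.6 CPM, and Snora78 at 42.2 and 23.9 CPM against 73.1 and 55.0 CPM. Snord15a and Snora7a were lower by log2 differences of -0.71 and -0.98, and the Cajal body RNA Scarna9 by -2.13. Snord15a and Snord15b are copies in introns of 1 gene, and reads of such copies may be split between them.

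Over the whole class, 61 of 73 tested small nucleolar and small nuclear RNAs were lower with biglycan and 12 higher. The median was -0.60 on the log2 scale, 23 were lower at an unadjusted p under 0.05 against 1.96% of all genes, and for 38 both biglycan libraries were below both Th17 libraries against 16.9% of all genes. Both kinds took part, with 35 of 42 box C/D members lower (median -0.62) and 24 of 28 box H/ACA members (median -0.39). With all 8 libraries and the filter no member was called. Snora61, Snord47 and Snord49b were called without Th17 replicate 2, and Snora78 and Snora7a without biglycan replicate 7. The median ranged from -0.76 to -0.43 over 12 alternatives, and that of the box H/ACA members from -0.85 to -0.37, at -0.75 without Th17 replicate 2 and -0.76 without biglycan replicate 7. The host genes lay closer to 0: 45 tested hosts of 58 of these RNAs had a median of -0.053, with 33 lower and 12 higher, and 46 of the 58 RNAs had a lower log2 difference than their host. Gas5 differed by -0.16, Snhg12 by -0.17 and Rps3 by -0.03.

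Values with PAM3CSK4, compared with the same Th17 libraries, lay below Th17 for 45 of these 73 RNAs, with a median of -0.16. There 5 were called lower against 4.78% of all genes: Snord49b, Snora61, Snora7a, Snord15b and Snora52. Both PAM3CSK4 libraries were below both Th17 libraries for 17 of the 73 and above both for 9. Of all genes 26.5% were so in each direction, so the 17 below both did not stand out, while the 9 above both were a smaller share. At an unadjusted p under 0.05 were 13 lower and 0 higher, against 11.6% and 11.4% of all genes. Snord49b was at 1.8 and 1.27 CPM and Snora61 at 5.96 and 4.97 CPM with PAM3CSK4. In the direct test of biglycan against PAM3CSK4, 55 of 73 were lower with biglycan. Of the 73, 1 was called lower, against 5.64% of all tested genes. It was Snora16a, at 1.26 and 1.48 CPM against 3.84 and 2.26 CPM (log2 -1.17 ± 0.36, adjusted p = 0.043). That call was lost with limma-voom and without PAM3CSK4 replicate 3 or either biglycan library, and DESeq2 gave no adjusted p for it.

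The summed level of the class did not separate the groups in the same way. It was 591 CPM in biglycan replicate 7 and 339 CPM in replicate 8, against 629 and 585 CPM in the Th17 libraries and 424 and 554 CPM with PAM3CSK4. Measured per library as the median difference of the members from the Th17 mean, box C/D RNAs were at -0.48 and -0.47 in biglycan replicates 7 and 8, and between -0.17 and 0.17 in the Th17 libraries. Box H/ACA RNAs were at -0.31 and -0.63 in biglycan replicates 7 and 8. The share of reads assigned to ribosomal RNA was 1.43% and 1.9% with biglycan, 2.57% and 2.75% in Th17, and 1.73% and 3.04% with PAM3CSK4. Its part in the small RNA values was not tested. Most of these small RNAs lack a poly(A) tail, and they overlap their hosts' introns, so their counts in an mRNA library are uncertain.

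**Figure D5:**
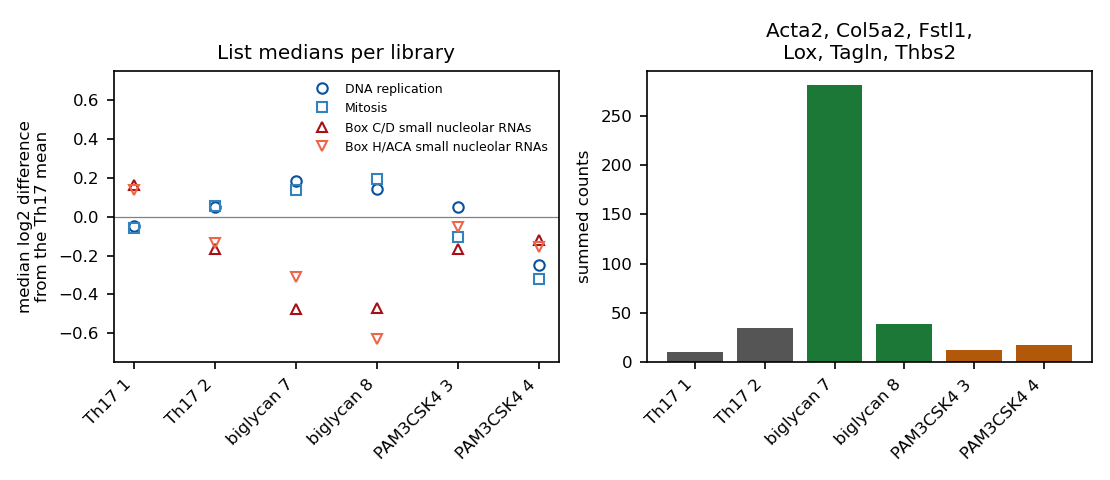
Left, the median log2 difference from the Th17 mean (y axis) over the members of 4 lists in each of the 6 cultured libraries (x axis). Right, the summed counts of 6 muscle and matrix genes in the same libraries, 281 in biglycan replicate 7 and 39 or fewer in each other library. The 6 genes were picked from a fit with replicate 7 as the only biglycan library, so its high bar follows from that choice.

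Other genes with small p in this direction included Tspan9, a tetraspanin gene, at 15.02 and 10.15 CPM with biglycan against 22.4 and 18.6 CPM. Kcnq1ot1, an imprinted antisense RNA, was at 85.2 and 98.9 CPM against 113 and 121 CPM (log2 -0.34 ± 0.08). The groups did not overlap for either gene. Chaperone genes were among the unadjusted calls, Hspa8 at 68.0 and 70.5 CPM against 103 and 73.3 CPM and Hsp90aa1 with a log2 difference of -0.51. With 1 library left out, Hspa8 ranged from -0.57 to -0.079 and Hsp90aa1 from -0.71 to -0.26 on the log2 scale. Of 15 tested heat shock genes 10 were lower. At an unadjusted p under 0.05 were 2 lower and 0 higher, against 1.96% and 2.39% of all genes. Npm1, a nucleolar chaperone of ribosome assembly, was at 106 and 102 CPM against 154 and 114 CPM (log2 -0.37 ± 0.11). Its log2 difference ranged from -0.56 to -0.14 with 1 library left out. The list of ribosome biogenesis factors had 17 of 32 members higher and a median of 0.0018.

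The matrix genes that separated the 2 biglycan libraries gave large but unstable estimates. Acta2 was at 6.72 CPM in replicate 7 and 0.74 CPM in replicate 8 against 0.084 and 0.773 CPM in the Th17 libraries, so replicate 8 lay within the Th17 range. Its fitted log2 difference of 3.16 had an interval from 1.32 to 5.00 (adjusted p = 0.80). Lox, which cross-links collagen, was at 5.57 and 0.85 CPM against 0.253 and 1.06 CPM, and Fstl1, a secreted glycoprotein gene of mesenchymal cells, at 5.99 and 0.74 CPM against 0.084 and 1.06 CPM. All 7 tested stromal markers were higher with biglycan, with a median of 0.53. That median ran from -0.12 (without Th17 replicate 1) to 2.42 (without Th17 replicate 2) and was -0.052 without biglycan replicate 7. For 0 of the 7 were both biglycan libraries above both Th17 libraries, against 17.3% of all tested genes. Acta2, Col5a2, Fstl1, Lox, Tagln and Thbs2 together had 281 counts in replicate 7 and 39 in replicate 8. They had 10 and 35 in the Th17 libraries and 43 and 24 in naive cells. These genes were picked from the fit without biglycan replicate 8, where replicate 7 alone stood for biglycan. Their high sum in replicate 7 therefore follows from that choice and is no separate support.

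PAM3CSK4, the other ligand, offers a scale for these values, and biglycan differed from it at many genes. In the direct test 1340 of 11629 genes (11.5%) differed, 684 higher (5.88%) and 656 lower (5.64%) with biglycan. DESeq2 called 851. Leaving out single libraries lowered the count, to 360 genes without biglycan replicate 7 and 625 without biglycan replicate 8. It fell to 776 when PAM3CSK4 replicate 3 was left out and to 449 when replicate 4 was. PAM3CSK4 against Th17 called 1162 genes (9.99%), 606 higher (5.21%) and 556 lower (4.78%), and 361 when Th17 replicate 2 was left out. Leaving out a PAM3CSK4 library gave 594 (replicate 3) or 387 (replicate 4). Since both ligands are compared with the same Th17 libraries, the counts of calls of the 2 ligands are not independent, and the direct test is the one that compares them.

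The Th17 cytokines were lower with biglycan than with PAM3CSK4. Il17a was at 89.7 and 94.2 CPM with biglycan and 126 and 179 CPM with PAM3CSK4, a log2 difference of -0.72 ± 0.13 (adjusted p = 0.00097). Il17f was at 440 and 426 CPM against 672 and 758 CPM, and Il21 at 210 and 221 CPM against 336 and 333 CPM. The groups did not overlap for any of the 3, as for 29.8% of all tested genes in this direction. Ahr was lower by a log2 difference of -1.07, Rora by -0.75, Irf4 by -0.56 and Cd44 by -0.64, each with an adjusted p under 0.05 in all 12 alternative analyses. Lif, which encodes leukemia inhibitory factor, was at 26.0 and 21.2 CPM against 54.6 and 62.4 CPM. In the Th17 list 11 genes were called lower and 1 higher of 25, against 5.64% and 5.88% of all tested genes; the higher one was Ccr6, the receptor for CCL20, at 16.4 and 18.4 CPM with biglycan against 12.4 and 10.3 CPM (log2 0.61 ± 0.16). The call of Ccr6 was lost with DESeq2 and without PAM3CSK4 replicate 4 or either biglycan library.

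Genes of activation, growth and metabolism were also lower than with PAM3CSK4. Il2ra was at 410 and 459 CPM with biglycan against 722 and 786 CPM, and Myc, the growth regulator, at 58.2 and 67.0 CPM against 112 and 114 CPM. Nfkbia differed by -0.53 and Tnf by -0.55 on the log2 scale. Of 29 NF-kB targets 8 were called lower and 0 higher, against 5.64% and 5.88% of all tested genes; these shares also apply to the 3 lists that follow. In the glycolysis and hypoxia list 16 of 35 were called lower and 1 higher, with Hk2, the hexokinase gene, at 9.67 and 8.57 CPM against 16.9 and 16.4 CPM. Of 25 genes of cholesterol synthesis and uptake 11 were called lower, and of 32 ribosome biogenesis factors 15 were called lower and 1 higher. For Il2ra, Myc, Nfkbia, Tnf and Hk2 the call held in all 12 alternatives.

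Genes of cell division were higher with biglycan than with PAM3CSK4. Of 36 mitosis genes 31 were called higher and 0 lower, and of 40 replication genes 10 were called higher and 0 lower, against 5.88% of all tested genes. Cenpe was at 147 and 155 CPM with biglycan against 113 and 94.1 CPM, and Hist1h1b at 357 and 341 CPM against 241 and 211 CPM. Mki67 differed by 0.45 ± 0.09, a call that was lost without PAM3CSK4 replicate 4 or biglycan replicate 8. The 2 PAM3CSK4 libraries differed in these genes, with mitosis medians of -0.10 and -0.32 relative to the Th17 mean. Of 29 genes of the naive and quiescent state 9 were called higher with biglycan and 2 lower, against 5.88% and 5.64% of all tested genes. Klf2, a quiescence factor, was at 181 and 186 CPM against 139 and 130 CPM.

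For genes called between the ligands whose libraries did not overlap, and whose higher group averaged 5 CPM or more, the 10 largest differences in each direction were taken. Below that level larger differences were called, such as Sparc (4.47) and Acta2 (4.07), whose counts lay mostly in biglycan replicate 7, and Csf2 (-2.08). Akr1c18, which encodes a progesterone-metabolizing enzyme, was at 8.4 and 6.77 CPM with biglycan, 5.06 and 8.5 CPM in Th17 and 1.8 and 1.45 CPM with PAM3CSK4. Rasgrp3, an activator of Ras, was at 50.1 and 43.5 CPM with biglycan, 38.6 and 65.8 CPM in Th17 and 14.3 and 15.5 CPM with PAM3CSK4. In both genes the biglycan libraries lay within the Th17 range and above the PAM3CSK4 libraries. The other genes of the 10 that were highest relative to PAM3CSK4 were Sv2c, Ntn1, Pid1, Il17rd, Tubb3, Ypel1, Dsp and Fam26f, by log2 differences from 1.22 to 1.74. In the other direction Tgm2, a transglutaminase gene, was at 20.5 and 26.0 CPM with biglycan, 36.8 and 16.7 CPM in Th17 and 72.3 and 97.9 CPM with PAM3CSK4, and Il12rb2, a receptor chain of IL-12, was at 6.62 and 6.03 CPM, 7.51 and 3.58 CPM, and 15.5 and 16.5 CPM. Mmp10, Cysltr2, Casr, Espn, Ildr1, Lif and Ak4 were also among these genes, lower by log2 differences from -1.28 to -1.86.

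Cyp1b1 showed another order. It was at 50.8 and 51.2 CPM with biglycan and 47.0 and 57.8 CPM with PAM3CSK4, against 36.4 and 24.9 CPM in Th17, so the libraries of the 2 ligands overlapped (log2 difference -0.03 ± 0.13). With PAM3CSK4 it was called against Th17 (log2 0.76, adjusted p = 0.0015), while with biglycan it was not (log2 0.73, adjusted p = 0.16).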

How the data were processed

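Messenger RNA was sequenced in 8 libraries, 4 groups of 2. Per the submitters' processing notes, reads were processed with Bowtie2, HTSeq and build mm9; neither versions nor annotation nor strand setting were among the sources used here. The authors deposited raw counts per gene for 23366 symbols, RPKM values scaled by the authors to gene length and depth, and mapping tables whose percent values give mapped, ribosomal and mitochondrial reads, per the file headers. The 5 summary lines of the count table, which name no gene and held 86.3 to 88.3% of its totals, were left out. Count columns were linked to samples by name and library number; the biglycan columns carry other numbers than the titles, and the titles' numbers are used.

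The test was edgeR 4.0.16 in R 4.3.3: filterByExpr by group, TMM factors, 1 quasi-likelihood fit with a mean per group over all 8 libraries (4 residual and 15.9 prior degrees of freedom, common biological coefficient of variation 6.19%), and Benjamini-Hochberg adjustment over 11629 genes. CPM uses TMM-scaled totals. Intervals are 95% intervals of the fit. The limit behind a count of 0 is 3 counts over the group and covers counting error only. No replicate pair agreed within sampling noise (chi-square per degree of freedom 2.62 with biglycan, 4.4 in Th17). DESeq2 1.42.0, limma 3.58.1 (voom), other filters, RLE scaling, fewer libraries and leaving out each replicate were alternatives. The fit was tested on simulated data. Where no gene passed, the 10 with the smallest p in each direction are named; against PAM3CSK4, the 10 with the largest difference each way at 5 CPM or more in the higher group, without overlap; also the called list members with the smallest p and a fixed set of Th17 and receptor genes. The comparison, lists and named genes were chosen with earlier results of these data known, and further genes after their values were seen. Sequences were read from GENCODE M21 (GRCm38). No sequence of Bgn or of the receptors was used.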

Additional observations from a re-analysis of the deposited data

How the results depend on the processing

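With biglycan against Th17, edgeR called 29 genes without the count filter (14 higher, 15 lower) and between 1 and 6 with 1 library left out (0 to 6 higher, 0 to 4 lower), against 0 otherwise, also with a stricter filter, RLE scaling, robust estimation, 6 or 4 libraries, DESeq2 and limma-voom. The infinite prior degrees of freedom without the filter are given in the results; the cause of the other differences was not tested. For biglycan against PAM3CSK4, DESeq2 called 851 genes (438 higher, 413 lower), a fit on the 4 libraries concerned 2231 (1114 higher, 1117 lower), and fits without 1 library 360 to 776 (189 to 426 higher, 171 to 350 lower). PAM3CSK4 against Th17, whose alternatives were added after seeing the data, gave 736 calls with DESeq2 (382 higher, 354 lower) and 361 to 938 without 1 library (212 to 467 higher, 149 to 471 lower). No paired analysis was possible because the replicate numbers of the biglycan libraries (7 and 8) are shared with no other group. With 2 libraries a group, differences of low-count genes, the receptors and small RNAs included, are bounded only loosely.

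Differences near 0 changed sign in some settings. For biglycan against Th17, log2 values turned to 0.0019 (RLE) and 0.00797 (limma-voom) for Foxp3, 0.018 for Tbx21 and 0.0025 for Ahrr (limma-voom), and 0.00086 for Pycard (DESeq2). With 1 library left out, the log2 differences to Th17 ranged over Ahr -0.32 to 0.33, Ahrr -0.24 to 0.26, Ccr6 -0.0101 to 0.16, Cd44 -0.14 to 0.11, Csf2 -1.11 to 0.12, Foxp3 -0.14 to 0.14, Gata3 -0.18 to 0.12, Il10 -0.13 to 0.86, Il17a -0.055 to 0.26, Il17f -0.089 to 0.28, Il2 -0.12 to 0.16, Il21 -0.086 to 0.30, Il23r -0.0091 to 1.31, Il2ra -0.16 to 0.20, Irf4 -0.12 to 0.24, Lif -0.33 to 0.073, Maf -0.10 to 0.14, Myc -0.18 to 0.16, Myd88 -0.036 to 0.20, Pycard -0.087 to 0.077, Rfc3 -0.10 to 0.0596, Tbx21 -0.32 to 0.32, Tlr1 -0.0505 to 0.14, Tlr2 -0.29 to 0.28, Tlr4 -0.34 to 0.17, Tlr6 -0.48 to 0.0091, Tnf -0.014 to 0.045. Those to PAM3CSK4 ranged over Cyp1b1 -0.18 to 0.12, Tlr2 -0.45 to 0.12, Tlr4 -0.28 to 0.18, Tlr6 -0.11 to 0.27. None of these was called.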
